A study of Cryptomeria japonica with 72 samples.

Results

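Late decline in needles was a set of 150 array targets of *Cryptomeria japonica*, the Japanese cedar sugi, whose signal in needles was lower 3 and 6 weeks after the cuttings were inserted than at any of 4 sampled times of the first week. The array held 15559 targets with 3 spots and 3745 with 4. The members were selected on needle values from the 12644 targets (65.5% of all) with every spot well above background on all 24 needle arrays, called the eligible targets. Each was scored by the lowest of its needle means at 0 hpe (hours post excision), 1 dpi (day post insertion), 3 dpi and 1 wpi (week post insertion) minus the higher of its needle means at 3 and 6 wpi, and the 150 highest scores were taken. The needle values at these 6 times therefore chose the members and are given as a description with no test. Needles at 0 hpi (hours post insertion) and 3 hpi, and every array of the stem, were not used by the score, although the 0 and 3 hpi needle arrays entered the detection filter.

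Stem cuttings of 1 clone, Tsukuba 1, came from donor trees 18 years old in the field and rooted in soil in a greenhouse without climate control. Needles (a length of shoot with its needles), the base in the soil and the middle above it were each taken at 0 hpe, 0 hpi, 3 hpi, 1 dpi, 3 dpi, 1 wpi, 3 wpi and 6 wpi from 3 cuttings a time, which gave 72 arrays of 1 colour, and all bases used at 6 wpi had rooted. Replicates were different cuttings of the same clone, so the spread does not cover differences between genotypes. No uncut shoots were sampled at the later times, and the time since excision cannot be told apart from the season or the age of the shoot. Values below are log2 signals set against each array's own 75th percentile, so that a value of 0 equals that percentile and 1 unit is a doubling. The median of all targets lay close to -1.9 on needle arrays. A list of 6 photosynthesis targets, a check of green tissue, had a mean in needles of 5.06 at 6 wpi and 4.66 at 0 hpe. Its mean for the base was -1.24 at 6 wpi and 4.17 at 0 hpe, and for the middle 4.05 at 6 wpi and 4.71 at 0 hpe.

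The aerial surface of a land plant is sealed by a cuticle made of cutin, a polyester of hydroxylated fatty acids, and of waxes derived from very-long-chain fatty acids. In Arabidopsis, 3-ketoacyl-CoA synthases (KCS) start each round of chain elongation, the CER1 and CER3 proteins convert the elongated acyl chains to alkanes, and wax ester synthases join them to alcohols. Cytochromes P450 of the CYP86 family hydroxylate fatty acids for cutin and suberin, acyltransferases of the GPAT family make the cutin monomers, and GDSL lipases include the enzyme that links the monomers. Epidermal cells of growing shoots carry much of this activity. Gene names below are those of the best Arabidopsis hit listed for each target, used where the E-value was under 1e-05, and the roles are those known in Arabidopsis. The hits come from the part of the study's annotation used here, which holds the first of its expression clusters. Those clusters were built on these same arrays, and 132 of the members lie in 2 of the needle clusters listed. Of the 150 members, 135 were listed, 104 with a usable hit and 31 without, and the 15 not listed may have one, while 60.6% of the eligible targets were not listed. Counts and medians of gene lists below therefore describe listed targets, which were in part chosen by their needle course, and not all genes of a kind. The 104 hits fell on 91 Arabidopsis genes, and 12 of these genes were hit by more than 1 member (25 members in all), so such members may share sequence.

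On needle arrays the median signal of the 150 members was somewhat lower at 1 wpi than at 0 hpe and much lower at the last 2 times. The difference of 1 wpi minus 0 hpe had a median of -0.43 over members and 0.027 over eligible targets. The mean of the 3 array medians was 0.87 ± 0.23 (SD, n = 3 here and below) at 0 hpe, 0.66 ± 0.16 after insertion (0 hpi) and 0.51 ± 0.64 at 3 hpi. On the following days it was 0.77 ± 0.34 at 1 dpi and 0.61 ± 0.096 at 3 dpi. After 1 week it was 0.27 ± 0.28, by 3 wpi it was down to -1.47 ± 0.32, and at 6 wpi to -1.70 ± 0.37. Among the eligible targets the median member stood at the 78.4th percentile at 0 hpe, at the 29.6th at 3 wpi and at the 26.6th at 6 wpi. Taken as the mean of 3 and 6 wpi minus the mean of 0 hpe, 1 dpi, 3 dpi and 1 wpi, the difference had a median of -2.03 over members (a 4.07-fold lower signal) and ranged from -1.34 to -4.52, while over all eligible targets its median was -0.003. In bulk tissue, fewer cells of a type and less RNA per cell cannot be told apart.

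**Figure D1:**
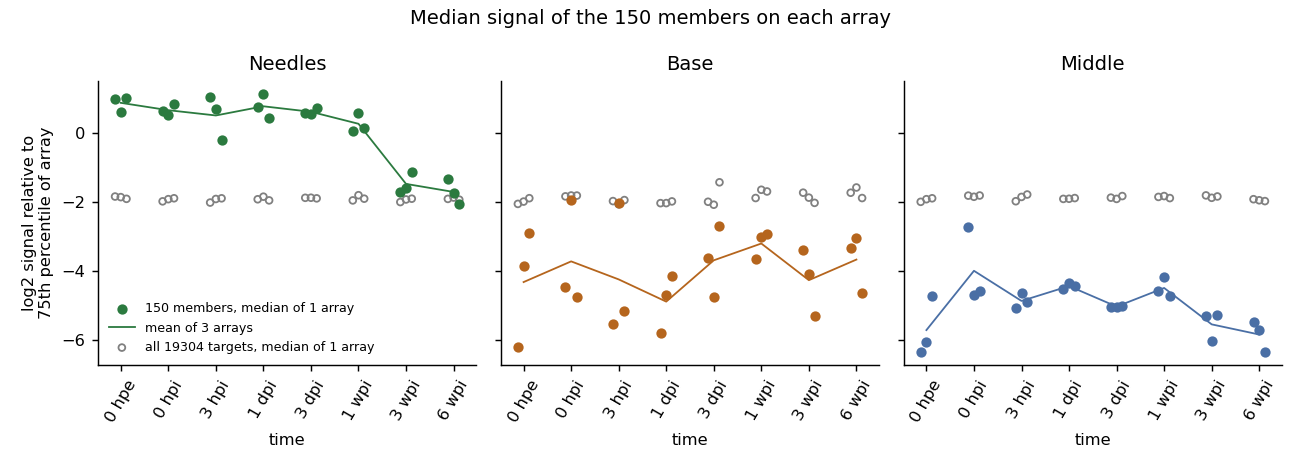
Median log2 signal of the 150 members on each array (filled points), with the mean of 3 arrays as a line, against time for needles, base and middle; open points are the median of all targets on the same array. In needles the members' medians lay well above the all-target medians up to 1 wpi and close to them at 3 and 6 wpi, while in base and middle they lay near or below the all-target medians at every time.

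For 119 of the 150 members (79.3%), all 6 arrays of 3 and 6 wpi lay below all 12 arrays of 0 hpe, 1 dpi, 3 dpi and 1 wpi. The same held for 5.77% of the eligible targets, and since the score used these arrays the share carries no further information. Part of the difference was already there at 1 wpi. The needle mean was lower at 1 wpi than at 3 dpi for 114 members, with a median difference of -0.31 over members and of 0.0055 over eligible targets. Between the last 2 times, 92 members were lower at 6 wpi than at 3 wpi, with a median difference of -0.18. The highest needle mean was at 0 hpe for 47 members, at 0 or 3 hpi for 14 and 19, at 1 or 3 dpi for 37 and 27, and at 1 wpi for 6. Of the means compared in these counts, only those of 0 and 3 hpi did not enter the score. Shares over the eligible targets were not counted, so the counts only describe the members.

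The score itself ran from 3.51 to 1.10 over the members, with a median of 1.37, against a median of -0.284 over the eligible targets. The edge of the set was not a gap. The last members, reCj31091, reCj29107 and reCj32458, scored 1.106, 1.106 and 1.101, and the first targets left out, reCj30244, reCj24851 and reCj22765, scored 1.095, 1.093 and 1.092. Left out as well were all targets with a dim spot on any needle array, which includes targets that were below background only at the late times.

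Needle arrays shared 6 slides with base arrays, and the slides were unevenly filled over time. Of the 6 late needle arrays, 4 lay on slide 4, which held no needle array from the first week. Slide 1 held 1 needle array each of 3 wpi and 6 wpi beside 1 of 1 wpi, and on this slide the median late minus 1 wpi difference was -1.66 over members and -0.019 over eligible targets. The score used these 3 arrays, so the members' value there was in large part fixed by the choice and says nothing of the slides. Spots well above background made up 73.1% to 83.9% of a needle array, 66.0% to 86.9% of a base array and 76.4% to 85.6% of a middle array.

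Genes of the cuticle and of wax formed the largest annotated group. Of 59 array targets on a list of cuticle and wax genes (elongases, alkane and wax ester enzymes, fatty acid hydroxylases, acyltransferases, lipid transfer proteins and their regulators), 57 were eligible and 24 were members. Of the 57, 56 had a lower late than early needle mean, with a list median of -1.68, against 55.2% lower and a median of -0.068 over the 4456 eligible targets with a usable hit, and the 24 members had differences from -1.49 to -4.37. A further 10 members hit GDSL lipases, of 31 on the array, and that list had a median of -1.34. All these values rest on arrays the score used, and lists and members were chosen with earlier results known.

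For reCj04906, which hits KCS1, an elongase of wax synthesis, the signals were -3.94, -1.18 and -1.06 at 3 wpi and -0.12, -1.45 and -3.20 at 6 wpi, against 1.12 to 3.33 on the 12 early arrays. The late values spread over nearly 4 log2 units between cuttings, yet each lay below every early value. A second target that hits KCS1, reCj23711, had a smaller difference of -1.77. For reCj22898, which hits the related KCS4, signals were -0.97, -0.83 and -0.50 at 3 wpi and -0.08, -1.21 and -2.02 at 6 wpi, against 1.46 to 4.02 on the early arrays. PAS2, hit by reCj24014, is the dehydratase of the same elongation cycle, and its late needle mean was -3.25, against an early mean of -1.63. It is named here because of its values.

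Both genes of the alkane step were represented. For reCj21561, which hits CER3, the signals were -0.89, -0.17 and 0.12 at 3 wpi and -0.46, -1.09 and -2.02 at 6 wpi, against 1.68 to 3.78 on the early arrays, a mean difference of -3.37. The CER1 targets reCj20314 and reCj20394, named after their values were seen, had differences of -2.26 and -2.29. They stayed bright at the end: reCj20314 read 2.78, 2.34 and 3.14 at 3 wpi and 1.73, 1.67 and 1.75 at 6 wpi, against 3.92 to 4.93 on the early arrays. Wax ester synthase-like acyltransferases were also among the members. For reCj26504 the signals were -2.54, -0.45 and -0.02 at 3 wpi and -0.12, -1.02 and -2.63 at 6 wpi, against 1.61 to 3.74 early, and reCj30207, which hits FOP1, differed by -3.07.

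Among enzymes of cutin and suberin monomers, reCj23728, which hits the fatty acid hydroxylase CYP86B1, had the largest difference on the list, -4.37. It read -4.68, -1.94 and -2.01 at 3 wpi and -1.02, -2.53 and -4.46 at 6 wpi, against 0.05 to 2.65 on the early arrays. The CYP86C2 hit reCj33527 differed by -2.94. GPAT6, an acyltransferase of cutin synthesis hit by reCj21353, differed by -1.68, and SHN1, a transcription factor that activates wax and cutin genes and is hit by reCj28433, by -2.12; both were named after their values were seen. The SHN1 target read -1.64, -1.12 and -0.85 at 3 wpi and -2.01, -2.48 and -2.27 at 6 wpi, against -0.29 to 1.10 on the early arrays. This target and the enzymes were all chosen for low late values, and a link between them was not tested. The GDSL lipase hits reCj27548, reCj27071 and reCj15104 differed by -3.60, -2.75 and -2.73. Not every member on the list is a cuticle enzyme by role: reCj28775, reCj25911 and reCj28255 all hit TSC10A, a reductase of sphingolipid synthesis in Arabidopsis.

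**Figure D2:**
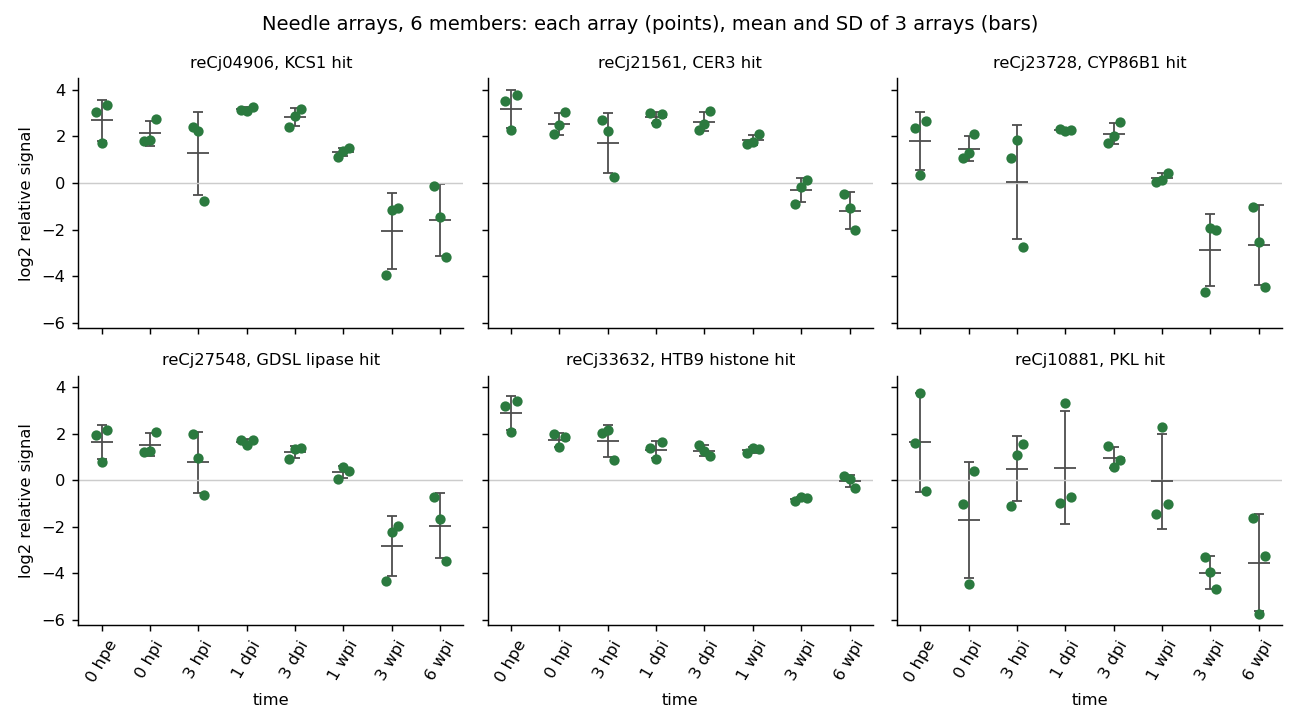
Log2 signal on needle arrays of 6 members, named by their best Arabidopsis hit, against time; points are single arrays and bars give the mean and SD of 3 arrays. The KCS1, CER3, CYP86B1 and GDSL lipase targets share a low array at 3 hpi and low arrays at 3 and 6 wpi, the HTB9 histone target had its highest mean at 0 hpe, and the PKL target varied most between cuttings.

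Wall genes were mixed, with 17 of 27 eligible targets of the secondary wall list (63.0%) and 44 of 72 of the cell wall list (61.1%) lower late. These shares were near the 55.2% of all eligible targets with a usable hit. Of the secondary wall list, 3 were members, and of the cell wall list 5, and these lists as a whole had medians of only -0.60 and -0.31. The lignin laccase IRX12, hit by reCj21077, read 0.67, 0.84 and 0.77 at 3 wpi and 0.00, -0.85 and -1.46 at 6 wpi, against 2.57 to 3.78 on the early arrays. CAD9, from the enzyme family that makes lignin precursors, hit by reCj25512, differed by -1.80, and DIR5, a dirigent protein hit by reCj32165, by -1.81. The endoglucanase GH9B1, hit by reCj22907, differed by -2.35 and the pectin lyase-like reCj24692 by -1.69.

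Genes of dividing cells were lower late as lists but supplied few members. Histones gave 5 members of 32 eligible targets with a list median of -0.94, and these 5 hit H2A, H2B, H3 (2 members) and H4 genes. The H2B target reCj33632, which hits HTB9, read -0.90, -0.73 and -0.78 at 3 wpi and 0.17, 0.05 and -0.32 at 6 wpi, against 0.91 to 3.42 on the early arrays. The H4 hit reCj32220 and the H3 hit reCj31307 differed by -1.91 and -2.17. The cell cycle list had a median of -0.99 over 56 eligible targets and a single member, reCj24619, which hits CYCD1;1, a D-type cyclin of the step into division. It read -3.67, -3.05 and -2.61 at 3 wpi and -2.28, -2.36 and -3.65 at 6 wpi, against -1.61 to 0.16 on the early arrays. DNA replication, with a median of -1.07 over 29 targets, had no member, nor had the ribosomal proteins (-0.53 over 89), the shoot apex list (-0.36 over 12) or photosynthesis, whose 6 targets were all higher late, by a median of 0.28.

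**Figure D3:**
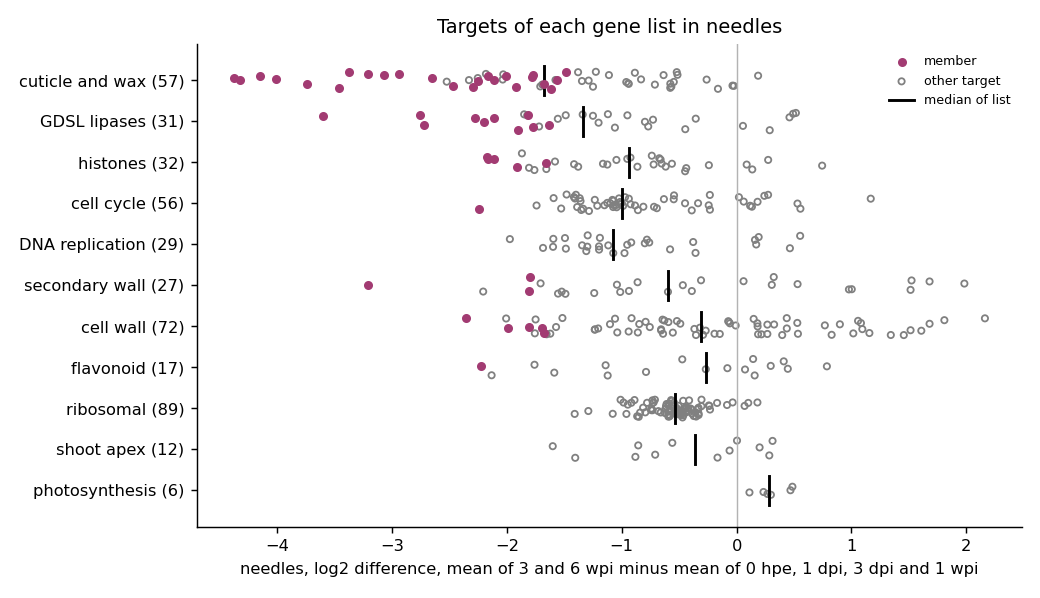
Needle log2 difference, mean of 3 and 6 wpi minus mean of 0 hpe, 1 dpi, 3 dpi and 1 wpi, for each eligible target of 11 gene lists (numbers of targets in brackets); filled points are members, open points other targets and black lines list medians. The cuticle and wax list holds more filled points than any other list and reaches furthest to the left, and the photosynthesis targets lie right of 0.

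Specialised metabolism had a few members. TPS03, a terpene synthase hit by reCj31039, differed by -2.51, but its late arrays overlapped the early ones because replicate 2 at 0 hpe read -1.67. FLS1, the enzyme that makes flavonols, hit by reCj15058, differed by -2.22 with overlapping arrays, and was the only member among 17 eligible flavonoid targets. The glycosyltransferase UGT85A1, hit by reCj21993, read -5.37, -4.68 and -4.15 at 3 wpi and -3.02, -4.56 and -5.34 at 6 wpi, against -2.27 to 0.26 on the early arrays. The HMG-CoA reductase HMG1, hit by reCj21508, commits carbon to isoprenoids and differed by -3.00.

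The remaining members were not placed on any list: 55 had a usable hit outside the lists and 46 had none listed here. Their differences were much like those of the listed members, with medians of -2.01 and -1.99, against -2.38 for the cuticle members and -2.16 for the GDSL lipases. The highest score of all, 3.51, belonged to reCj29584, which has no usable hit listed here and read -3.98, -1.65 and -0.36 at 3 wpi and -2.19, -0.77 and -2.45 at 6 wpi, against 1.16 to 4.27 on the early arrays. The second belonged to reCj10881, which hits PKL, a chromatin remodelling factor that silences embryo genes after germination. It read -3.28, -3.93 and -4.68 at 3 wpi and -1.62, -5.74 and -3.26 at 6 wpi, against -1.43 to 3.76 on the early arrays, where cuttings of the same time differed by more than 4 log2 units. The matrixin metalloprotease hit reCj28486, the PAR1 hit reCj32836 and the extensin-family hit reCj24317 differed by -2.53, -2.80 and -2.37.

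Members varied more between cuttings than other targets did, although a choice by differences of means can itself favour variable targets. The 0 hpe arrays entered the score and the 3 hpi arrays did not. The median SD over 3 needle arrays was 0.68 for members and 0.21 for eligible targets at 0 hpe, and 0.82 and 0.32 at 3 hpi. Much of this was shared. At 0 hpe the array of replicate 2 was the lowest of the 3 for 120 members (80.0%, against 52.5% of eligible targets), and at 3 hpi the array of replicate 3 was the lowest for 114 (76.0%, against 35.4%). At 6 wpi replicate 1 was the highest for 110 members (73.3%, against 33.3%). As a description over 24 arrays, a member's deviations from its group means correlated with the members' median deviation at a median r of 0.72, and 23 members had an r below 0. The arrays share slides and RNA handling, whose part in this was not tested.

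In the stem the members were far less often detected than other needle targets. At the base, 22 members (14.7%) were well above background on every array, against 74.0% of the eligible targets, and in the middle 42 (28.0%) against 93.3%. On no middle array at all were 15 members above background. At 0 hpe the needle mean exceeded the base mean for 149 members and the middle mean for all but 2, by medians of 5.23 and 5.90, against medians of 0.012 and -0.0051 over eligible targets. By 3 and 6 wpi the needle mean exceeded the base mean for 95 members at each time, and the middle mean for 121 and 129. Among eligible targets it exceeded the base mean for 50.6% at 0 hpe, 44.4% at 3 wpi and 44.2% at 6 wpi. For the middle these shares were 49.7%, 48.9% and 51.8%. Many stem signals were at background, so these differences are not folds of expression.

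**Figure D4:**
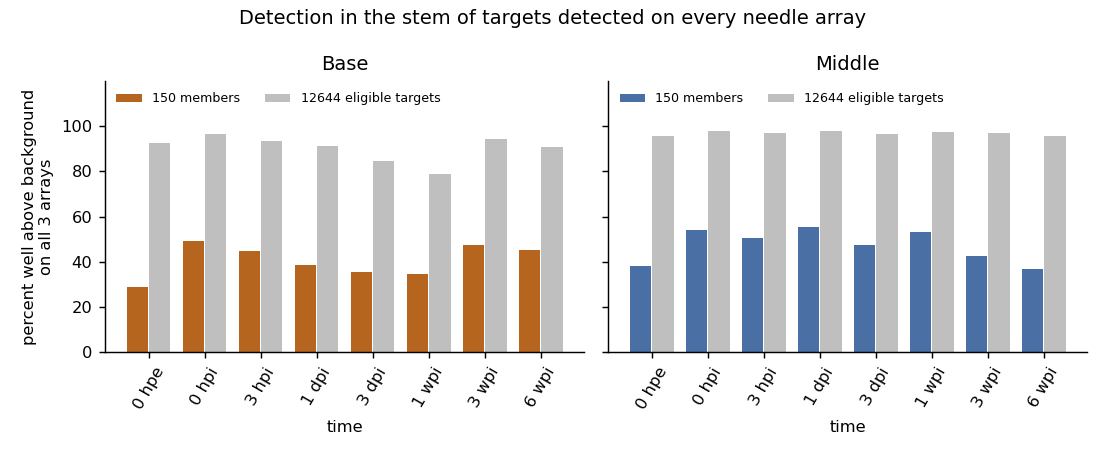
Percent of the 150 members (coloured bars) and of the 12644 eligible targets (grey bars) with every spot well above background on all 3 arrays of a time, for base and middle. Members stay between 28.7% and 55.3% at every time and part, against 78.8% or more of the eligible targets.

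The cuticle and GDSL lipase members were seldom detected there. Of the 24 cuticle members, 15 were well above background on at most 1 middle array, with medians of 6 of 24 base arrays and 1 of 24 middle arrays. The 10 GDSL lipase members had medians of 5 base and 3 middle arrays. For KCS1 target reCj04906 the count was 1 of 24 middle arrays, and for the CYP86B1 target reCj23728 it was 0. By contrast, all 5 histone members were detected on every middle array, with a median of 21 of 24 base arrays.

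Several base arrays stood apart in these dim genes. At 0 hpe the members' median was -6.20, -3.86 and -2.88 on the 3 base arrays and that of the cuticle list -5.01, -2.91 and -1.51, lowest in replicate 1. The members' median was then -4.45, -1.94 and -4.75 on the base arrays at 0 hpi and -5.51, -2.03 and -5.16 at 3 hpi, with replicate 2 high at both times. On the same arrays the cuticle list had medians of -5.30, -1.48 and -5.45 at 0 hpi and of -7.03, -2.03 and -5.66 at 3 hpi. The photosynthesis list had 3.02, 3.33 and 3.28 at 0 hpi and 1.65, 0.50 and 1.05 at 3 hpi, where replicate 2 was the lowest. At 0 hpe this list was nearly as high at the base (4.17) as in needles (4.66), so it cannot tell these parts apart. At 3 hpi the ribosomal list had 0.14, 0.91 and 0.24, high in replicate 2, and the cell cycle list -1.28, -1.34 and -1.26. In the late against early comparisons of the stem 0 and 3 hpi enter only through the spread, but 0 hpe is one of the early times, and it is the starting point of the base rule given next.

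A minority of the members had become bright at the base by 1 wpi, while they were still high in needles. Taken as a base mean at 1 wpi at least 2 log2 units above 0 hpe, with every spot well above background on all base arrays of 1 wpi, a rule set after the values were seen, 32 members (21.3%) were found. Among the eligible targets the share was 6.63%, and the difference between these shares was not tested. At 0 hpe 28.7% of members were detected on all 3 base arrays, against 92.4% of eligible targets, so more members started near background. The base medians of these 32 were -4.46 ± 0.80 at 0 hpe, -1.91 ± 0.15 on insertion and -0.17 ± 0.48 at 3 hpi. They reached 1.07 ± 0.66 at 1 dpi, 1.32 ± 0.52 at 3 dpi and 1.65 ± 0.64 after 1 week, and were 0.84 ± 0.31 at 3 wpi and 1.12 ± 0.38 at 6 wpi. The number of the 32 detected on all 3 base arrays was 32 at 1 wpi, as the rule required, and 9 at 0 hpe. The base values at 0 hpe and 1 wpi chose these members and are only a description. The other 118 members had base medians of -4.18 ± 2.19 at 0 hpe, -3.85 ± 0.38 at 1 wpi and -4.42 ± 1.13 at 6 wpi.

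In the middle, 30 of these 32 members were higher at 1 wpi than at 0 hpe, with medians of -4.65 ± 0.65 at 0 hpe, -0.49 ± 0.22 at 3 hpi, -1.53 ± 1.00 at 1 wpi and -2.40 ± 3.03 at 6 wpi, where the 3 cuttings read -2.96, 0.88 and -5.11. At 0 hpe, deviations from group means correlated at 0.749 to 0.947 between base and middle arrays of the same number. The rule used the base at 0 hpe, so the middle rise is not independent of it. The share over eligible targets is not given. Only 3 of the 34 cuticle and GDSL lipase members were in the group, but 4 of the 5 cell wall members were.

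**Figure D5:**
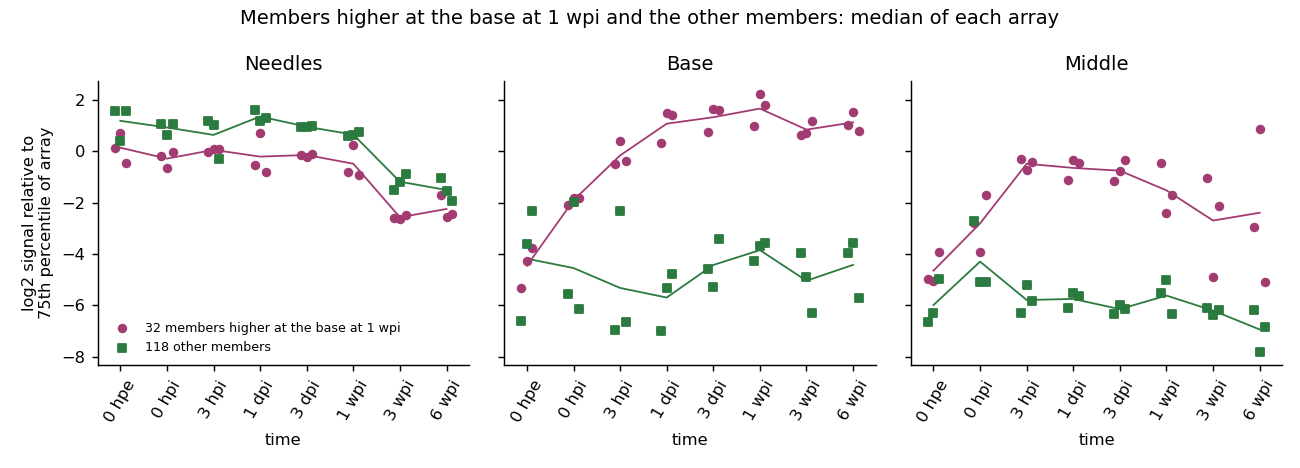
Median log2 signal on each array of the 32 members that were higher at the base at 1 wpi (circles) and of the 118 other members (squares), with the mean of 3 arrays as a line, for needles, base and middle. Both sets are lower in needles at 3 and 6 wpi, while at the base the circles lie between 0.96 and 2.22 at 1 wpi and the squares stay below -1.9 at all times.

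PKL target reCj10881 was in this group. It read -4.22, -4.35 and -5.30 at the base at 0 hpe, 2.81, 3.90 and 3.02 at 1 wpi and 2.63, 3.47 and 2.10 at 6 wpi. The cellulose-cleaving GH9B1 target reCj22907 read -5.71, -3.34 and -1.58 at 0 hpe, 4.26, 4.61 and 5.37 at 1 wpi and 0.91, 3.33 and 0.92 at 6 wpi. The pectin methylesterase PME3, hit by reCj04297 and named after its values were seen, loosens or stiffens walls by removing methyl groups from pectin. Its base signals were -7.08, -5.56 and -4.89 at 0 hpe, 3.21, 5.15 and 4.83 at 1 wpi and 3.56, 5.11 and 2.19 at 6 wpi. Its needle signals were -3.38, -2.72 and -2.96 at 3 wpi and averaged -2.36 ± 0.53 at 6 wpi, against -1.49 to -0.29 on the early arrays.

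The 32 also differed from the rest in how cuttings varied in needles. At 0 hpe their needle median was 0.14, 0.72 and -0.46 over the 3 cuttings, highest in replicate 2, while that of the other 118 was 1.58, 0.40 and 1.56, lowest in replicate 2. At 1 dpi it was -0.52, 0.71 and -0.82, against 1.59, 1.17 and 1.28, and at 1 wpi -0.80, 0.25 and -0.92, against 0.57, 0.61 and 0.75. Replicate 2 was the highest of the 3 arrays at 1 wpi for 26 of the 32 (81.2%, against 37.3% of eligible targets). At 0 hpe it was so for only 17 (53.1%, against 42.1%), with replicate 3 the highest for 14. Of the 23 members with an r below 0, 16 were among the 32. At 3 wpi the needle median of the 32 was low on all arrays, at -2.60, -2.63 and -2.49, against -1.50, -1.19 and -0.88 for the other members.

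The question whether the late difference was shared by the stem was tested on targets clear of background on every base and middle array. Only 18 of the 150 members were among the 9592 targets tested, so these 18 do not stand for the members at large. Compared with limma across 48 arrays, with a call at an adjusted p under 0.05 and a difference of at least 1, the mean of 3 and 6 wpi minus the mean of 0 hpe, 1 dpi, 3 dpi and 1 wpi was called for 3 of 18 members at the base, 1 lower and 2 higher, where 6.31% of all targets tested were called, 2.96% lower and 3.35% higher. The median difference was -0.24 over the 18 and 0.032 over all targets. In the middle 5 of 18 were called, all lower, where 1.68% of all targets were called, 1.13% lower and 0.553% higher, and the median was -0.61 against -0.0056 over all targets. At an unadjusted p under 0.05 (limma), 7 base and 9 middle differences passed. The share of all targets that passed this was not counted, so no excess is read from it.

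At the base, reCj25828 had signals of 0.90, 0.76 and -1.10 at 3 wpi and 1.88, -0.68 and 0.69 at 6 wpi, against -3.27 to 0.93 on the early arrays. It was higher late by 1.62 (SE 0.38, adjusted p = 0.00139, limma), although the arrays overlapped. In the middle the same target was lower late by a log2 difference of -1.11 (adjusted p = 0.0463, limma). Its listed hit, VSP1, a vegetative storage protein, did not reach the E-value limit. The target reCj30574, not listed in the annotation used here, rose at the base by 1.50 (adjusted p = 0.00697) and reCj30273 fell by 1.85 (adjusted p = 0.00493), as in needles. With the slide as a fixed block none of the 3 base calls held (0 of 18), and base late arrays lay on the same slides as the late needle arrays. On slide 1 alone the median late minus 1 wpi difference of the members at the base was 0.14.

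In the middle, the lower calls were reCj30319, with an FHA domain hit (-1.28, adjusted p = 0.0325, limma), reCj22067, a methyltransferase (-1.18, adjusted p = 0.016), reCj19321, which hits P5CS2, an enzyme of proline synthesis (-1.12, adjusted p = 0.0332), reCj25828 and reCj34717 (-1.06, adjusted p = 0.0148). The methyltransferase target read -2.75, -3.39 and -2.89 at 3 wpi and -3.24, -2.58 and -3.59 at 6 wpi, against -3.49 to -0.95 on the early arrays, where replicates 1 and 2 at 0 hpe (-3.49 and -3.46) were as low as the late arrays. Middle arrays lay on 3 slides that each held early and late arrays, and the members' median difference within them was -0.15, -0.12 and -0.36. The 5 middle calls depended on the processing, with 1 call under normexp background correction and 3 under quantile normalization. Without replicate 3 at 6 wpi no lower call was left and 1 higher call appeared. The count was 2 or 3 without any of 9 other arrays (replicate 3 at 0 hpe, 1 or 2 at 1 dpi, 3 at 3 dpi, 3 at 1 wpi, each of 3 wpi and 1 at 6 wpi).

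The 2 stem parts were then compared by subtracting the middle's change from that of the base. This difference was called for 4 of 18 members, all above 0, where 8.48% of all targets were called, 4.21% below and 4.26% above 0. The largest was reCj25828 at 2.73 (SE 0.53, adjusted p = 0.000556, limma), followed by the P5CS2 target reCj19321 at 1.99 (adjusted p = 0.00429), the methyltransferase reCj22067 at 1.73 (adjusted p = 0.00653) and reCj32814 at 1.12 (adjusted p = 0.0171). The median was 0.40 over the 18 and 0.050 over all targets. With the slide as a fixed block none was called.

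Of the cuticle list, 14 targets could be tested in the stem. Each of the base and middle comparisons called 1 of them lower late and none higher, with medians of 0.085 for the base and -0.045 for the middle. DNA replication genes rose at the base for 7 of 17, with none lower and a median of 0.94, the cell cycle list for 7 of 23, and histones for 3 of 15, and no target of these 3 lists was called in the middle. Over all targets tested 3.35% were called higher at the base, and base calls over all targets, lower and higher, numbered 605, against 18 when slide was fitted as a block. Of the 5 photosynthesis targets tested, 4 fell at the base, with a median of -3.28 that differs in sign from the needle value.

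The first hours after insertion were open to test in needles, since the score did not use 0 or 3 hpi. The difference of 3 hpi minus 0 hpi was called for 11 members (7.43% of all but the 2 that failed the filter), 7 lower and 4 higher, where 8.43% of 12523 targets were called, 4.38% lower and 4.06% higher, so that the members' share was close to the background. The median was -0.28 over members and -0.017 over all targets. An unadjusted p under 0.05 (limma) was found for 32 members, and the share over all targets was not counted. The median depended on the low array of replicate 3 at 3 hpi and was 0.07 without it, with 8 calls, while leaving out replicate 2 at 3 hpi gave 26 calls.

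Members that fell at 3 hpi included FLS1 target reCj15058, which read -1.09, -0.82 and -2.08 at 3 hpi, against 0.66, 0.68 and 1.52 at 0 hpi (difference -2.29, SE 0.54, adjusted p = 0.0047, limma). AGP22 target reCj17286, an arabinogalactan peptide of the cell surface, read -0.81, -0.50 and -1.01 at 3 hpi, against 2.06, 1.55 and 0.78 at 0 hpi (-2.24, SE 0.28, adjusted p = 1.5e-05, limma). In both, the arrays of the 2 times did not overlap. GH9B1 target reCj22907 fell by 1.29 (adjusted p = 0.0149, limma). Among the rises, the oxidoreductase reCj23154 read 1.96, 1.45 and 0.59 at 3 hpi, against -0.35, -0.04 and 0.50 at 0 hpi (1.30, SE 0.30, adjusted p = 0.00433, limma). The P450 target reCj21320, which hits CYP77B1, rose by 1.08 (adjusted p = 0.0159, limma), and reCj21350, not listed in the annotation used here, by 1.30 (adjusted p = 0.00537, limma). The 57 cuticle and wax targets had 5 lower and 1 higher calls with a median of -0.59. This too rested on replicate 3, since the list medians were 1.35, 1.37 and -0.022 at 3 hpi, against 1.08, 1.28 and 1.59 at 0 hpi. Of the 11 calls, 3 were made with the slide as a fixed block, and the 3 hpi arrays lay on other slides than the 0 hpi arrays.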

How the data were processed

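Each of the 72 samples (8 times, 3 parts, 3 cuttings a time) was hybridized to 1 array of 1 colour. The authors deposited spot intensities from Agilent Feature Extraction 11.5, background-subtracted but not normalized between arrays, with spot flags as 0 or 1 scores. Their second deposited table holds log2 values scaled to the 75th percentile and centred per probe. The centring was inferred from the values, and values recomputed from all spots differed by at most 0.00459. With spots flagged as non-uniform left out, as for the other values here, the largest difference for a member was 2.31. Such a flag on a needle array was found for 2 members. Members came from that table. Other values are the mean intensity of spots without a non-uniformity flag, as log2 against each array's 75th percentile.

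Tests used limma 3.58.1 (R 4.3.3) on targets that, on all arrays of the fit, were free of non-uniformity flags, averaged a signal above 10 and had all spots well above background. P-values were adjusted by Benjamini-Hochberg over all targets in a fit, and calls were made at an adjusted p under 0.05 with a log2 difference of at least 1. The fits were tested on simulated data. Tables were handled with pandas 2.3.3 and NumPy 2.4.6 in Python 3.11.15, and figures drawn with matplotlib 3.10.9. The members, lists and tests were chosen with earlier results of these data known. Named were the 20 highest-scoring members with a usable hit, the 3 highest of each list, the largest calls and the targets at the edge of the set, and any other named member was chosen after its values were seen. Alternatives covered normexp background correction (on median spot signals), quantile normalization, filters, slide, replicate block and single arrays left out. Annotations are the best Arabidopsis hits in the study's supplement, of which the later expression clusters were not used here, so gene lists are incomplete. The number of arrays limits the precision.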

Additional observations from a re-analysis of the deposited data

Results flagged for a closer look

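Among the members, 4 differed between base and middle in the change from the first week to 3 and 6 wpi, by the test of the difference itself. The base change minus the middle change was 2.73 for reCj25828, with changes of 1.62 for base and -1.11 for middle. It was 1.99 for reCj19321 (0.88 and -1.12), 1.73 for reCj22067 (0.55 and -1.18) and 1.12 for reCj32814 (0.23 and -0.89).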

How the results depend on the processing

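Counts of members called moved with the filter, the slide, the background correction and single arrays. Without the filter on dim spots, 24 members were called at the base (7 lower, 17 higher), 15 in the middle and 18 for the difference between them, and when spots had only to be positive and significant, 7 were called at the base and 8 in the middle. A fixed slide block gave 0 at the base, 0 for the difference and 3 for needles at 3 hpi. Normexp gave 1 and quantile normalization 3 in the middle, and a fit on the compared arrays alone gave 4 for needles at 3 hpi. Of the 150 members, 84 were kept without the dim filter, 143 with quantile normalization and 133 with normexp. Leaving out single arrays gave 3 to 4 calls at the base, 1 to 7 in the middle, 3 to 5 for the difference, 8 to 26 for needles at 3 hpi and 122 to 150 members kept, fewest without needles replicate 1 at 3 wpi. The members' median difference for needles at 3 hpi, below 0 in the full fit, ranged from -0.58 to 0.0715 over single arrays left out, and was above 0 only without replicate 3 at 3 hpi. The 11 largest calls, taken by size and direction within each comparison, were kept in 261 of 283 alternative results, lost in 22 and reversed in none. The smaller calls named above are not in this count. Over all targets, the counts were 1836 at the base, 483 in the middle and 1880 for the difference without the dim filter, and 926 at the base with positive and significant spots. Under the fixed slide block they were 18 at the base and 3 for the difference. They were 333 and 93 in the middle without replicate 2 or 3 at 6 wpi, and 572 for needles on the compared arrays alone.

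With the replicate number as a block, 3 members were called at the base, 5 in the middle, 5 for the difference and 11 in needles. Base and middle arrays of the same number had deviations that correlated above 0.1 in every pair only at 0 hpe, 3 dpi and 6 wpi. Base arrays correlated best with their own number for 3 of 3 at 0 hpe, 0 hpi, 3 dpi and 1 wpi. That held for 2 of 3 at 3 hpi and 6 wpi, and for 1 of 3 at 1 dpi and 3 wpi. The labels do not name the cutting of an array, and the parts may share cuttings. The main fits took the arrays as independent, while the block for the difference paired arrays of the same number and time. Targets dim on any stem array were not open to test, which left out 132 members.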
